A study of Mus musculus with 4 samples.

Results

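Cytosolic ribosomal proteins are the structural proteins of the large and small subunits of the ribosome that translates nuclear mRNAs. Their genes were followed across 4 media given for 12 h to mouse embryonic stem (ES) cells of the line OG2, in which regulatory sequence of Pou5f1 drives a green fluorescent protein transgene. Members were chosen by symbol and selected on the detection p-values of the arrays: Rpl or Rps with a digit, Rplp0, Rplp1, Rplp2 or Rpsa, without S6 kinases, pseudogenes and symbols ending in l, and detected (p below 0.01) on 1 or more of the 4 arrays. This gave 55 of 62 such symbols, among 8341 detected genes of 16593 with a probe. They comprised 31 proteins of the large subunit, 21 of the small subunit and 3 like-named genes that encode no standard ribosomal protein, namely Rps19bp1, Rpl7l1 and Rpl22l1. The rule used detection and no difference between media, but the group was proposed with earlier results of these arrays known, so its values are given as description. No member is called changed on the strength of the group.

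All cells shared a feeder-free preculture on gelatin, in KSR medium that held the MEK inhibitor PD0325901 (1 µM), the GSK3 inhibitor CHIR99021 (3 µM) and 1000 U/ml leukaemia inhibitory factor (LIF), which signals through JAK kinases to STAT3. They were moved for 12 h to 1 of 4 media: PD0325901 with LIF; LIF with 10 ng/ml of fibroblast growth factor 2 (FGF2); PD0325901 with 1 µM JAK inhibitor I; or FGF2 (10 ng/ml) with JAK inhibitor I (1 µM). The labels name no CHIR99021 in these 4 media. FGF2 thus took the place of the MEK inhibitor and the JAK inhibitor took the place of LIF, and adding the one and withdrawing the other cannot be told apart. There was 1 Illumina bead array per medium. No value therefore has a replicate, and single differences have no test. Between 10626 and 10927 of 25697 probes were detected per array, and the median bead error of probes detected on all 4 was 4.08% to 4.56% of the signal.

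A cell needs the ribosomal proteins in equal numbers, since each ribosome holds 1 copy of most of them, and their mRNAs are among the most abundant in growing cells. Much of their control is at translation: their mRNAs typically begin with a C followed by a run of pyrimidines, the 5′ terminal oligopyrimidine (TOP) tract, through which the kinase mTOR and the protein Larp1 set how strongly they are translated. Arrays measure the amount of mRNA and do not see that step. ERK and Myc act on ribosome production in part through RNA polymerase I and the assembly factors, and rapidly cycling ES cells make ribosomes at a high rate. In whole cultures, fewer cells of a type and less RNA per cell cannot be told apart.

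RefSeq promoter windows (GRCm38.p6) were at hand for 47 of the 55 members. The 10 windows below run from 25 bases before to 25 bases from the annotated transcription start on, 5′ to 3′ on the transcript's strand. Capitals mark a C followed by at least 5 further pyrimidines that begins between 10 bases before and 15 bases after the start. The first 4 belong to the members with the lowest mean values under FGF2 among those lower in both backgrounds (Rps3a1, Rps3, Rps4x and Rpl31). The others belong to Rps6, to some members higher with the JAK inhibitor (Rpl28, Rps10, Rps9), to the steadiest member (Rps26) and to Rps27. Also among the highest with the inhibitor were Rpl37a and Rpl4, whose windows are not shown. Neither holds a tract that begins within that range, though the Rpl4 window holds a pyrimidine run that begins further upstream.
Rps3a1 (chr3:86142644-86142693, minus strand): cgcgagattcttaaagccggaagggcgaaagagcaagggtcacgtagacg
Rps3 (chr7:99483685-99483734, minus strand): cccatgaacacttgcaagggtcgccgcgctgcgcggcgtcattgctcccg
Rps4x (chrX:102189367-102189416, minus strand): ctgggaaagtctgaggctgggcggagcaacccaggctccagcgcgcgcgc
Rpl31 (chr1:39367826-39367875, plus strand): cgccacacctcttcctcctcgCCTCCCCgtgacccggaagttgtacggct
Rps6 (chr4:86857343-86857392, minus strand): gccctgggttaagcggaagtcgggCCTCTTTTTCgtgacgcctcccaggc
Rpl28 (chr7:4792940-4792989, plus strand): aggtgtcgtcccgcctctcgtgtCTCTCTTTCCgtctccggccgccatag
Rps10 (chr17:27635220-27635269, minus strand): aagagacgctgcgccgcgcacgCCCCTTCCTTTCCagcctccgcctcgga
Rps9 (chr7:3704016-3704065, plus strand): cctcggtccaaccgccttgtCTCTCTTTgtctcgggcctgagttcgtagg
Rps26 (chr10:128626482-128626531, minus strand): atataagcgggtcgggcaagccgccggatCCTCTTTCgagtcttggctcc
Rps27 (chr3:90213624-90213673, minus strand): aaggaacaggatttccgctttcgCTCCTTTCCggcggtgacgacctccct

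Such a tract was present in 24 of the 47 members with a window (51.1%), against 26.9% of detected genes and 24.9% of all genes in the promoter table. Of the 4 members with the lowest FGF2 values shown above, Rpl31 held a tract in its window, and no match was found in those of Rps3a1, Rps3 and Rps4x. By tract, the median of the mean log2 difference of FGF2 against PD0325901 was −0.01 for the 24 with a tract and −0.06 for the 23 without, and that of the JAK inhibitor against LIF was 0.03 and −0.02. Over the whole promoter (250 bases before to 50 after the start, both strands), the letters CCGGAAG, which ETS factors bind, occurred in 38.3% of members, 20.9% of detected genes and 9.93% of all genes. CACGTG, the E-box that Myc binds, occurred in 10.6%, 12.0% and 8.09%, and TATAAA in 12.8%, 8.99% and 15.7%. Each of these motifs can begin with pyrimidines on a strand, so a match can share bases with a tract. Matches describe the sequence only, and the annotated start may differ from the start used in ES cells. A pyrimidine run that began outside the range set around that start, as for Rpl4 and Rps25, counted as no tract.

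The general finding across the 4 media was that ribosomal protein mRNAs differed little after quantile normalization. That step evens out a shift shared by bright probes. With scaling to the median of each array in its place, the members' median log2 difference reached −0.26 for the JAK inhibitor with PD0325901 (all genes −0.04). The highest and the lowest array of a member lay a median of 1.13-fold apart (0.17 on the log2 scale, normalized signal), while the figure for all detected genes was 1.33-fold (0.41). Highest and lowest were at least 0.32 apart on the log2 scale for 8 of 55 members, against 66.3% of all genes. At 1.5-fold these were 2 of 55 (25.5% of all genes), and at 2-fold 0 of 55 (3.24%). Rpsa is among the 8 and the 2 by its normalized signal, though it was detected on 1 array only. Bright probes vary less on such arrays, so the 39 members with a mean log2 signal of at least 12 were also set beside the other 143 genes that bright: their median ranges were 0.13 and 0.20. Many mouse ribosomal protein genes have processed copies elsewhere in the genome, and whether a probe also reads such copies was not tested.

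**Figure D1:**
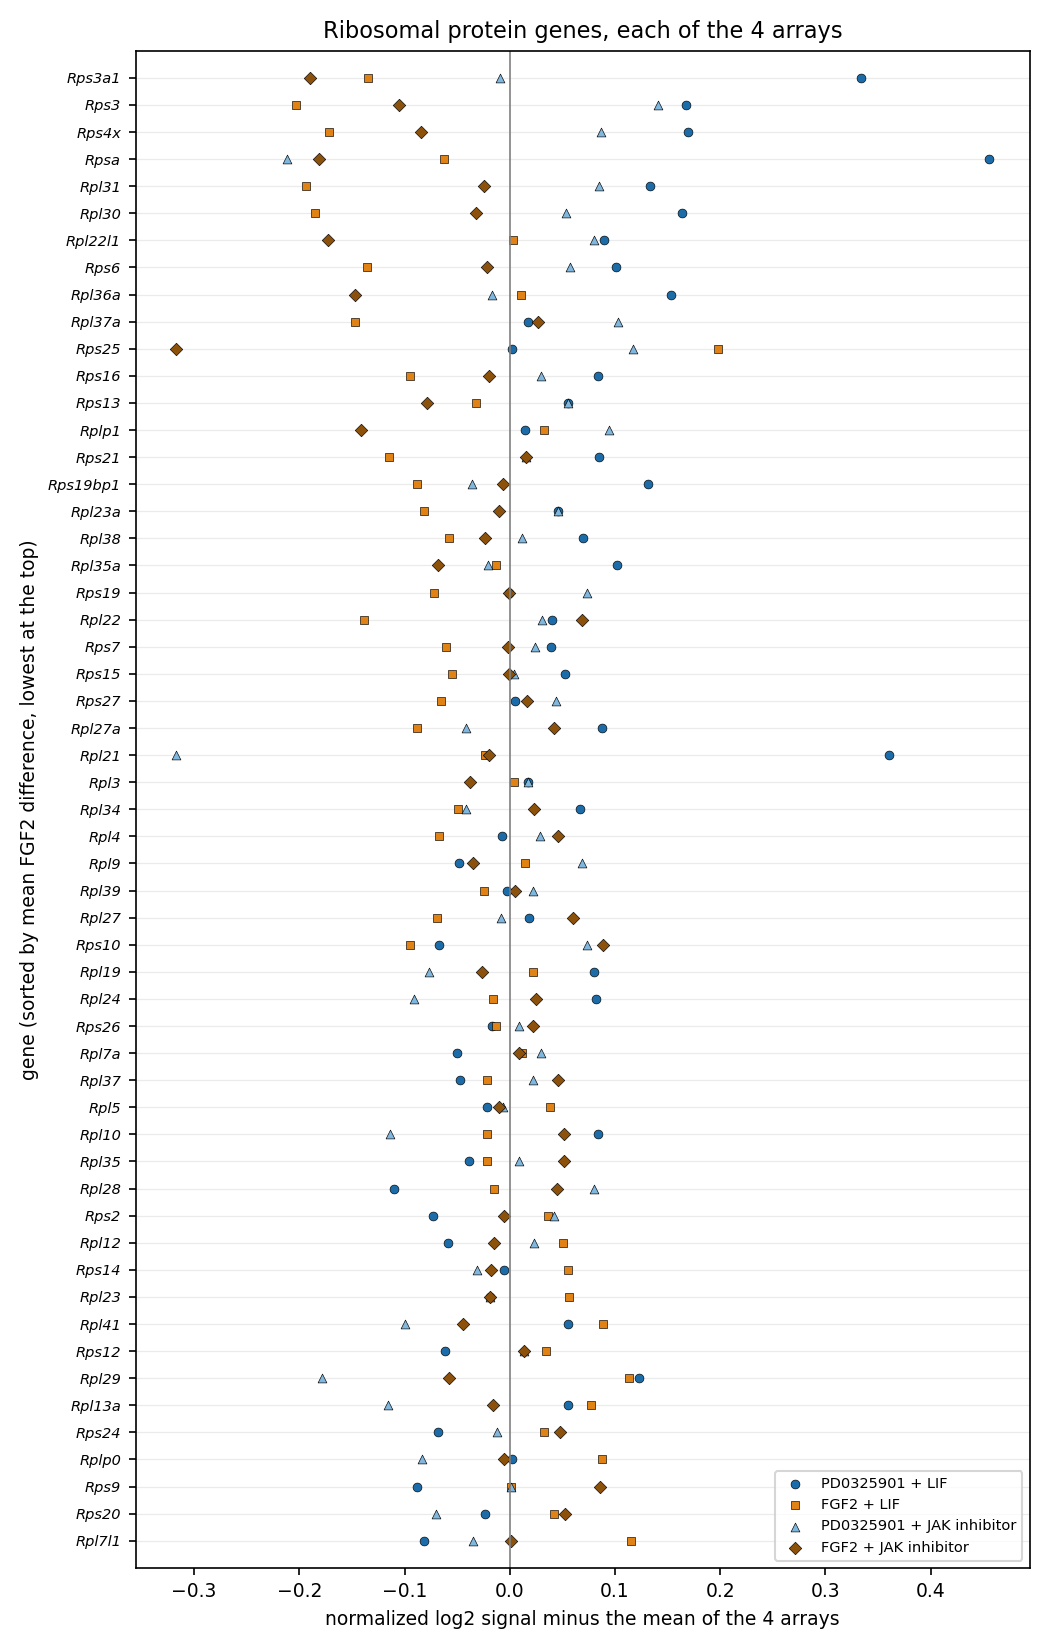
Normalized log2 signal of each of the 55 ribosomal protein genes on each of the 4 arrays, minus the gene's mean over the arrays; every point is 1 array, with no error bar. For 33 of the 55 genes all 4 arrays lie within 0.1 of the gene mean. The share of all genes that close was not counted, so 33 is not read as unusual. Rpl21, Rps3a1 and Rpsa (not detected on the other 3 arrays) stand high with PD0325901 and LIF. Rps25 stands low with FGF2 and the JAK inhibitor.

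The additive limma fit, in which each factor is estimated from both backgrounds and the departure from additivity is the error, was run over all 8341 genes. Of the 55 members 0 passed an adjusted p of 0.05 for FGF2 against PD0325901, where 0.24% of all genes did, and 0 passed for the JAK inhibitor against LIF, where 0.288% of all genes did. At an unadjusted p below 0.05 the members again numbered 0 for each factor, against 11.5% and 10.6% of all genes. Among the other 143 genes with a mean log2 signal of at least 12 the shares were 4.2% and 2.8%. The lowest member p-value in the limma fit was 0.080 for FGF2 (Rps3a1, adjusted p = 0.475) and 0.062 for the JAK inhibitor (Rpsa, adjusted p = 0.491, an estimate that uses 3 arrays on which it was not detected). The fit has 1 residual degree of freedom and assumes that the factors add. A p above the threshold does not show that the levels were equal.

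For FGF2 against PD0325901 with LIF present, 34 members were lower and 21 higher, with a median log2 difference of −0.07 (all genes −0.01). With the JAK inhibitor 28 were lower, 24 higher and 3 equal, with a median of 0.00 (all genes 0.00). Equal values here and below come from quantile normalization, which gives probes of the same rank on 2 arrays the same value. The raw signals of Rpl23, 1 of the 3, were 11723 with PD0325901 and 16038 with FGF2. With LIF, 7 members were apart by at least 0.32 on the log2 scale, all 7 lower with FGF2. Of all genes 32.7% were that far apart and 15.7% were that much lower. Of the other 143 bright genes 9.79% were that far apart and 2.1% that much lower. Of the 39 bright members 7.69% were that much lower. Rpsa, 1 of the 7, was not detected with FGF2 and has only a bound there. With the JAK inhibitor 1 member was at least 0.32 apart (22.0% of all genes). At 1.5-fold 0 members were apart in either background (9.48% and 4.68%). In both backgrounds 20 members were lower with FGF2 (30.6% of all genes) and 11 were higher (28.9%), while 21 had opposite signs and 3 were equal in a background.

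Among proteins of the small subunit, 3 had the lowest FGF2 values. Values are given from here on as normalized log2 signals in the order PD0325901 with LIF, FGF2 with LIF, PD0325901 with JAK inhibitor, FGF2 with JAK inhibitor. Rps3, which lines the channel where mRNA enters the ribosome, stood at 13.43, 13.06, 13.41 and 13.16. Both arrays with FGF2 were below both arrays with PD0325901, and the differences were −0.37 with LIF and −0.25 with the JAK inhibitor, each more than 2 times its bead error (0.08 and 0.10, the error from the beads of single arrays). A second detected probe of Rps3 gave 12.51, 11.99, 12.53 and 12.40, with both FGF2 arrays again below both PD0325901 arrays. Rps4x, a small subunit protein encoded on the X chromosome, stood at 13.79, 13.45, 13.71 and 13.54. Its arrays did not overlap between FGF2 and PD0325901, with differences of −0.34 and −0.17. Rps3a1 stood at 9.54, 9.08, 9.20 and 9.02, so that PD0325901 with LIF was high and the other 3 arrays lay close together.

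Of the large subunit, Rpl31, at the exit of the peptide tunnel, stood at 13.56, 13.24, 13.51 and 13.41. Both FGF2 arrays were lower, by 0.33 and 0.11 on the log2 scale, with bead errors of 0.06 and 0.05. Its second probe gave 10.29, 10.02, 9.83 and 9.74, also lower with FGF2 in each background. That probe was lower with the JAK inhibitor in each background too. The first probe differed by −0.05 with the JAK inhibitor beside PD0325901 and by 0.17 beside FGF2. Rpl30 stood at 10.16, 9.81, 10.05 and 9.97, and its groups did not overlap. Rps3, Rps4x and Rpl31 were the 3 members that differed the same way by more than 2 bead errors in both backgrounds. The share of all genes that did so was not counted, and bead errors hold no spread between cultures. On the same arrays these 3 passed the limma fit once its spread estimate was allowed to depend on signal intensity. Their adjusted p-values were 2.95e-04, 0.0019 and 0.019. Of all genes 4.32% passed for FGF2, a share near that of these 3 among the members. In that fit the spread comes wholly from genes of like intensity and not from the gene's own departure. Over the other settings run the adjusted p of Rps3 lay between 0.084 and 0.792, that of Rps4x between 0.206 and 0.899 and that of Rpl31 between 0.337 and 0.986.

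**Figure D2:**
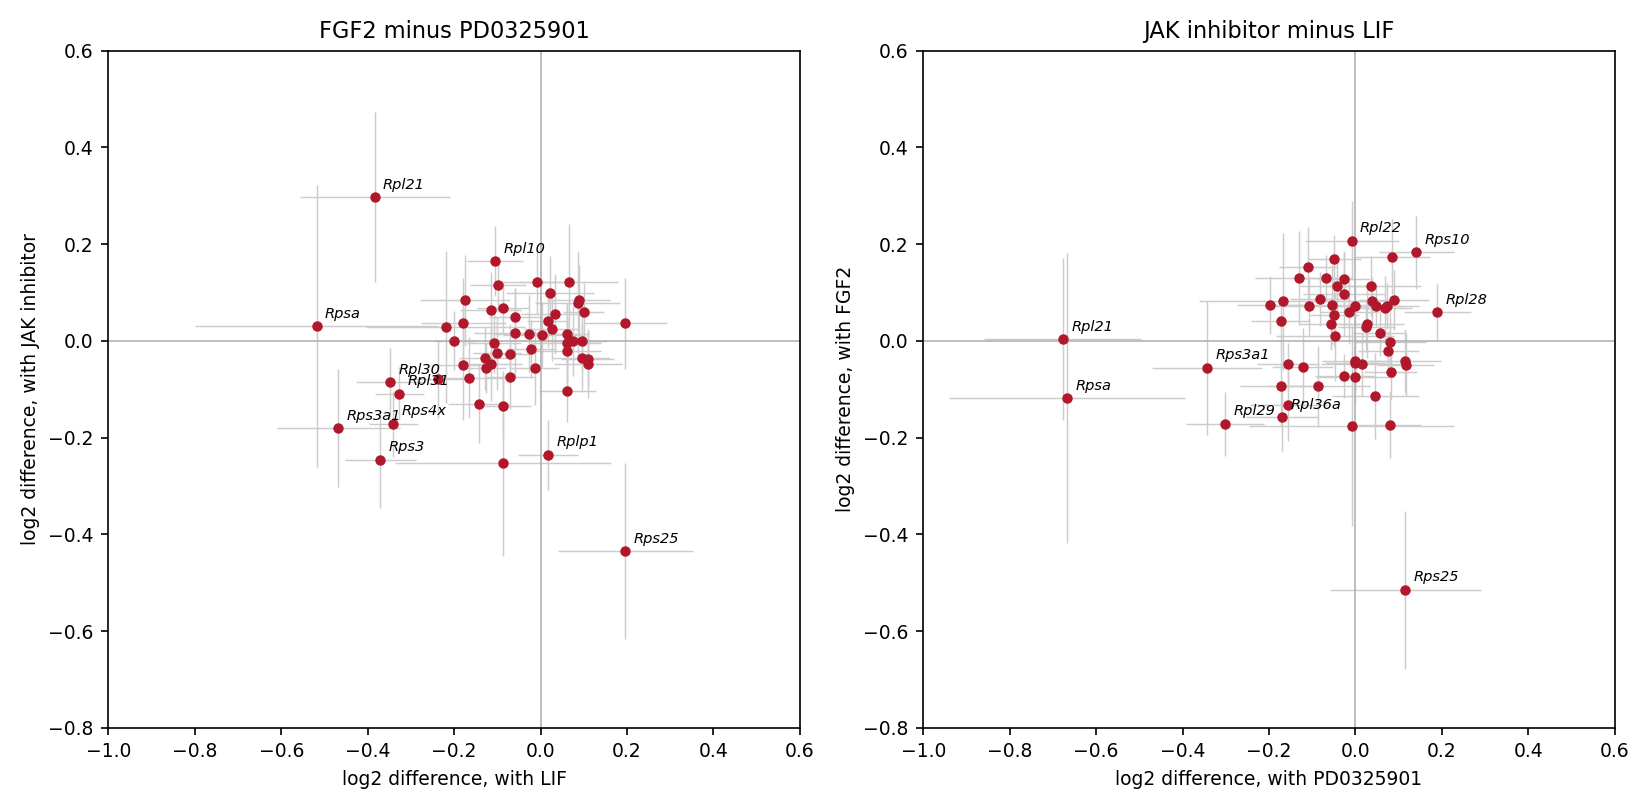
Log2 difference of each of the 55 members in one background against the other, FGF2 minus PD0325901 on the left and JAK inhibitor minus LIF on the right; bars are bead errors of single arrays, not replicate errors. Rps3, Rps4x, Rps3a1, Rpl31 and Rpl30 lie in the lower left of the left panel, and Rpl21, Rps25 and Rpsa (detected on 1 array only) lie far from the rest near an axis or across it.

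Rps6, the small subunit protein that S6 kinases phosphorylate downstream of mTOR and ERK, stood at 13.10, 12.86, 13.05 and 12.98. Its mRNA was lower with FGF2 by 0.24 with LIF and by 0.08 with the JAK inhibitor (limma adjusted p = 0.726 for the mean difference). On the higher side the values were small. Rps20 differed by a mean log2 value of 0.09, Rps9 by 0.09, Rps24 by 0.08 and the stalk protein gene Rplp0 by 0.08, each higher with FGF2 in both backgrounds. Rpl7l1, a like-named gene with no place among the standard proteins, had the highest mean difference (0.12), and its second probe gave −0.06 and −0.01 in the 2 backgrounds. A second probe of Rps24 gave −0.27 and −0.08, and one of Rps9 −0.10 and 0.15 (−0.15 and 0.10 for the JAK inhibitor), so the sign of these small values depended on the probe. With median scaling Rps20, Rps9 and Rps24 were lower with FGF2 on average, while Rplp0 and Rpl7l1 stayed higher.

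For the JAK inhibitor against LIF, 30 members were lower, 21 higher and 4 equal with PD0325901, with a median log2 difference of −0.02 (all genes 0.00). With FGF2, 23 were lower and 32 higher, with a median of 0.03 (all genes 0.01). At least 0.32 apart were 3 members with PD0325901, all lower with the inhibitor (32.4% of all genes in either direction, 15.2% lower), and 1 with FGF2 (20.2%). Of the other 143 bright genes 9.79% were that far apart with PD0325901 and 3.5% were that much lower. Of the 39 bright members 0 were that far apart. Rpl21 and Rpsa were the 2 members at least 1.5-fold apart by their normalized signals, both with PD0325901, where 9.42% of all genes were (4.68% with FGF2). Rpsa was not detected with the inhibitor, so its difference there has only a bound. In both backgrounds 11 members were lower (27.8% of all genes) and 12 higher (30.2%), and 28 had opposite signs.

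Both members with the largest differences were dim. Rpl21 stood at 5.62, 5.23, 4.94 and 5.24, with raw signals of 111, 104, 88.9 and 112 where the lowest signal of an array was 64.4 to 71.2. Its level was high with PD0325901 and LIF and low with PD0325901 and the JAK inhibitor, a difference of −0.68 (bead error 0.18), while with FGF2 the difference was 0.00. A second probe of Rpl21 was not detected on the arrays with the inhibitor and gives no value for this difference. Rpsa, a small subunit protein that is also known as the laminin receptor, was detected with PD0325901 and LIF only (detection p 0.0050, and 0.080 to 0.239 on the other 3 arrays). The bounds put it at least 1.14-fold higher there than with FGF2 and LIF, and at least 1.12-fold higher than when the inhibitor replaced LIF. These bounds leave out bead error. The bead errors of the 2 differences, 0.28 and 0.27 on the log2 scale, exceed them, so a minimum change is not established. A second probe of Rpsa was detected on no array. Just outside the rule stood Rpl14, whose lowest detection p was 0.035.

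Rpl29, a large subunit protein that is dispensable for viability in mice, stood at 11.65, 11.64, 11.35 and 11.47. Both arrays with the inhibitor were below both with LIF, and the differences of −0.30 and −0.17 exceeded 2 bead errors. A second probe gave −0.06 and −0.02. Rpl36a, on the X chromosome, stood at 12.12, 11.97, 11.95 and 11.82, lower with the inhibitor by 0.17 and by 0.16. Rpl41, which encodes the shortest ribosomal protein, had a mean difference of −0.14. On the higher side were Rps10 with 0.16, Rpl37a with 0.13, Rpl28 with 0.12, Rps9 with 0.09 and Rpl4 with 0.07, none past the limma test, and all 5 turned below 0 with median scaling.

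In several members the FGF2 difference was not the same in both backgrounds, though the gap between backgrounds has no test. Rps25, a small subunit protein used by some viral internal ribosome entry sites, stood at 11.24, 11.44, 11.36 and 10.92. It was low on the array with both FGF2 and the JAK inhibitor, and its departure from additivity was −0.63. With LIF its FGF2 difference was 0.20 (bead error 0.16), and with the JAK inhibitor it was −0.43 (bead error 0.18). Rplp1, an acidic protein of the stalk that recruits translation factors, stood at 14.24, 14.26, 14.32 and 14.09, with a departure of −0.25 and the same array low. In the other direction stood Rpl21 (0.68) and Rps3a1 (0.29), both high with PD0325901 and LIF. Rpsa, detected on that array only, has no measured departure. With 1 array per medium, a departure and the error of a single array cannot be told apart. Of the members with opposite signs in the 2 backgrounds, 0 exceeded 2 bead errors in both, for either factor. The share over all genes was not counted.

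Across the 55 members the differences of the 2 backgrounds were only weakly related. For FGF2 the correlation was r = 0.07 (Spearman 0.20), and for the JAK inhibitor r = 0.11 (0.08). Over all genes r was 0.33 (Spearman 0.27) for FGF2 and 0.32 (0.24) for the JAK inhibitor. Over the other 143 bright genes r was 0.56 (0.55) and 0.53 (0.56). The members include dim genes with large differences, and the correlation over the 39 bright members alone was not computed. These are correlations across genes that share the same 4 arrays, so they are given as description.

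**Figure D3:**
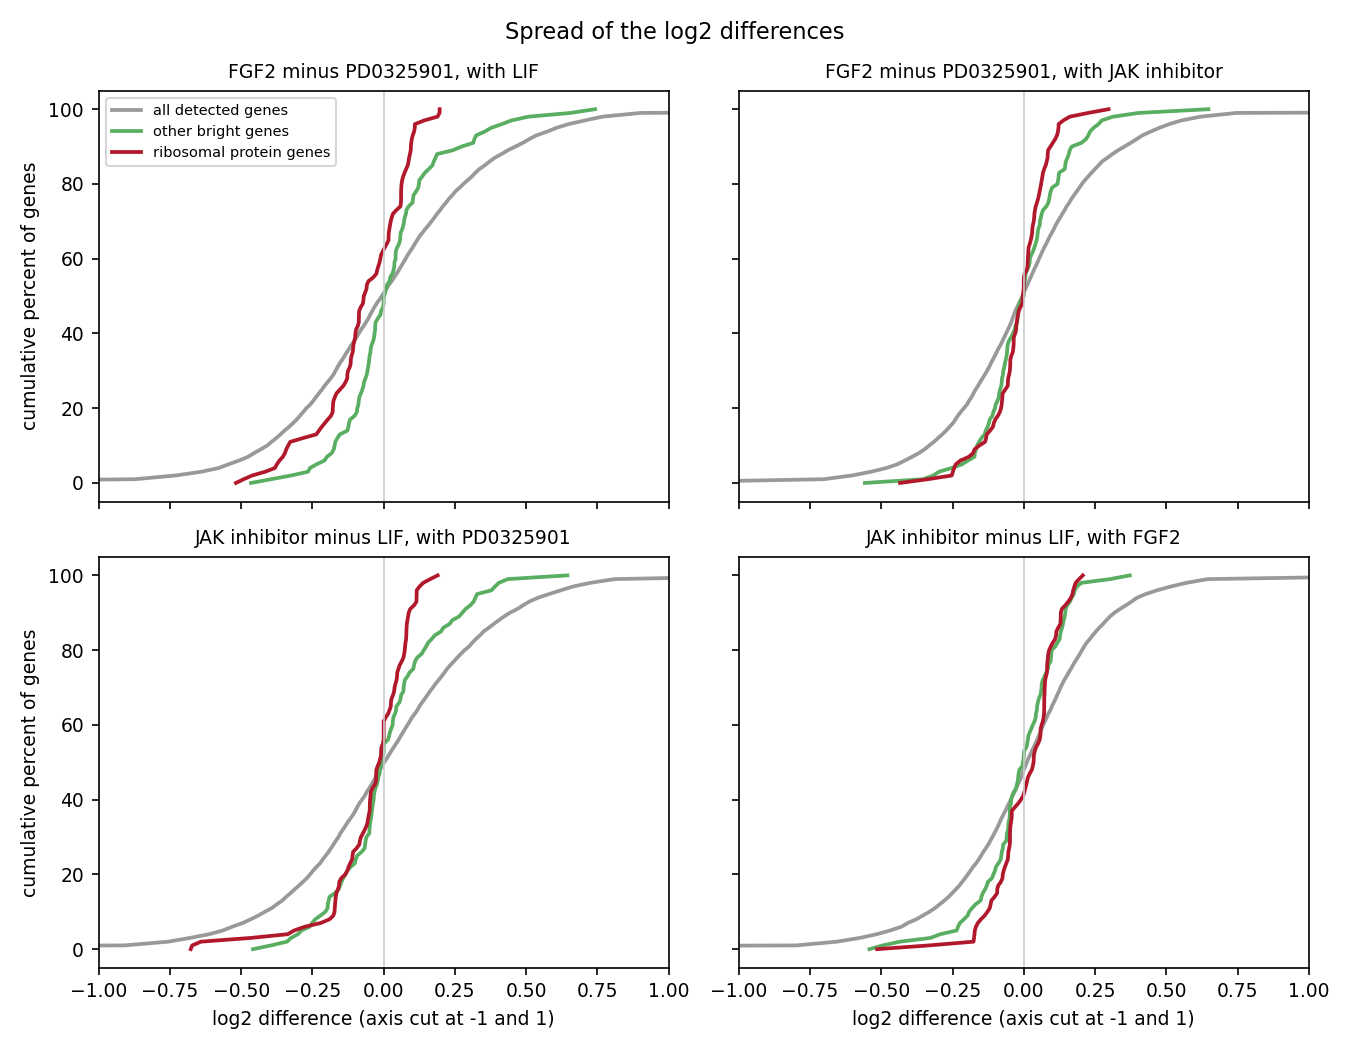
Cumulative percent of genes (vertical) by log2 difference (horizontal, cut at −1 and 1) for the 55 ribosomal protein genes, the other 143 genes with a mean log2 signal of at least 12 and all 8341 detected genes. The ribosomal protein curve is steeper than that of all genes in each panel. For FGF2 minus PD0325901 with LIF it lies to the left of the other bright genes, with medians of −0.07 and 0.00. The curve holds all 55 members, dim ones included. The 39 with a mean log2 signal of at least 12 had a median of −0.03 in that panel.

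Of 14 members named for their roles, 6 had a range over the arrays of up to 0.17 on the log2 scale, the median of the members, and 8 had a larger one. Outside that set, Rps26 had the smallest range of all members, standing at 13.70, 13.71, 13.73 and 13.74. Rpl39, an X-linked protein of the peptide exit tunnel, had a range of 0.05 on the log2 scale, and Rpl3, which shapes the peptidyl transferase centre, one of 0.06 (13.74, 13.73, 13.74 and 13.69). Rpl5, which with 5S rRNA and Rpl11 can bind and inhibit Mdm2, stood at 12.99, 13.05, 13.01 and 13.01. Rps2 stood at 14.28, 14.39, 14.40 and 14.35 and Rps27 at 12.94, 12.87, 12.98 and 12.95. Rpl10, the X-linked protein that joins the large subunit late, stood at 13.85, 13.74, 13.65 and 13.82, lowest with PD0325901 and the inhibitor.

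Rpl22 and its paralog Rpl22l1 can substitute for each other in mouse ribosomes, and neither passed the limma test. Rpl22 stood at 9.86, 9.69, 9.86 and 9.89, low with FGF2 and LIF. Rpl22l1 stood at 5.28, 5.19, 5.27 and 5.01, near background. Rps19, whose human counterpart is mutated in Diamond-Blackfan anaemia, stood at 14.05, 13.98, 14.12 and 14.05, while a dim second probe stood at 6.15, 5.80, 5.30 and 5.92. The probes disagreed 1.89-fold on the JAK inhibitor difference with PD0325901 and 1.62-fold on the FGF2 difference with the inhibitor, which made Rps19 the member with the largest disagreement among the 10 with several detected probes. Rplp2, Rpl6, Rpl14, Rpl17, Rps15a, Rps23 and Rps23rg1 were not detected, with raw signals of 71.6 to 95.7. Most of them encode proteins of every ribosome, and the part of the probes in these low signals was not tested. Rpl11 and Rps27a had no probe here.

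By subunit, for the FGF2 mean difference the medians were −0.06 over 21 small and −0.02 over 31 large subunit genes, and for the JAK inhibitor 0.03 and −0.01. The other genes of ribosome production were taken by lists of their roles. Of 50 detected ribosome biogenesis genes, 25 were higher with FGF2 in both backgrounds (28.9% of all genes) and 8 lower (30.6%), with a median of 0.11 (all genes −0.01). Of the 50, 0 passed the limma test over all genes, and 6 had an unadjusted p below 0.05, near the 11.5% of all genes. The largest were Heatr1, a factor of pre-rRNA transcription and processing, with 0.66, the helicase gene Dhx37 with 0.58 and Tsr1 with 0.45. Of 25 initiation factors 15 were higher in both and 3 lower, beside the same shares of all genes (median 0.08, 0 past the test and 0 at unadjusted p below 0.05).

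Among 8 genes of RNA polymerase I and its factors the FGF2 median was 0.18, with 0 past the limma test. Of these 8, 1 had an unadjusted limma p below 0.05, beside 11.5% of all genes. Tcof1, a nucleolar factor that supports rRNA transcription, stood at 8.38, 9.56, 8.37 and 9.21. Its FGF2 and PD0325901 arrays were well apart, with a mean log2 difference of 1.01 (limma adjusted p = 0.081). The 12 regulators of mTOR and Myc had a median of 0.17, again with 0 past the test. Of these, 5 had an unadjusted limma p below 0.05, beside the same 11.5% of all genes. The list pools activators with inhibitors, so its median gives no direction of either pathway. Eif4ebp2, an inhibitor of cap-dependent initiation, stood at 0.71. The log2 difference of Myc was 0.42 beside LIF, from levels of 4.87 with PD0325901 and 5.29 with FGF2. The lowest detected value of that PD0325901 array was 4.85, so Myc was near the detection limit there. Beside the JAK inhibitor Myc was detected with FGF2 and not with PD0325901, a difference of at least 1.68-fold. The Myc antagonist gene Mxd3 was detected on neither FGF2 array. Its PD0325901 levels exceeded the bound there at least 1.39-fold beside LIF and at least 1.06-fold beside the inhibitor. The level with PD0325901 and the inhibitor was 4.89, where the lowest detected value of the array was 4.86. The bounds of Myc and Mxd3 leave out bead error, so a minimum change is not established. The 13 elongation factors and other genes whose mRNAs begin with a pyrimidine tract had a median of −0.03, with Hnrnpa1 at −0.49 and Pabpc1 at 0.31. For the JAK inhibitor the medians of these lists lay between −0.07 and 0.05, with 0 genes past the test. Of 4 paralogs and fusion genes outside the symbol rule, Fau, which encodes a fusion with the small subunit protein Rps30, stood at −0.13 for FGF2, and Rpl3l at −0.29.

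The mitochondrial ribosomal proteins, which build a separate ribosome, had a median range of 0.32 over 71 genes, against 0.17 for the cytosolic ones. Of these, 44 were lower with the JAK inhibitor in both backgrounds (62.0%, against 27.8% of all genes and 11 of 55 cytosolic members), with a median of −0.10 and 0 past the test. For FGF2 30 were lower in both (30.6% of all genes) and 9 higher (28.9%).

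**Figure D4:**
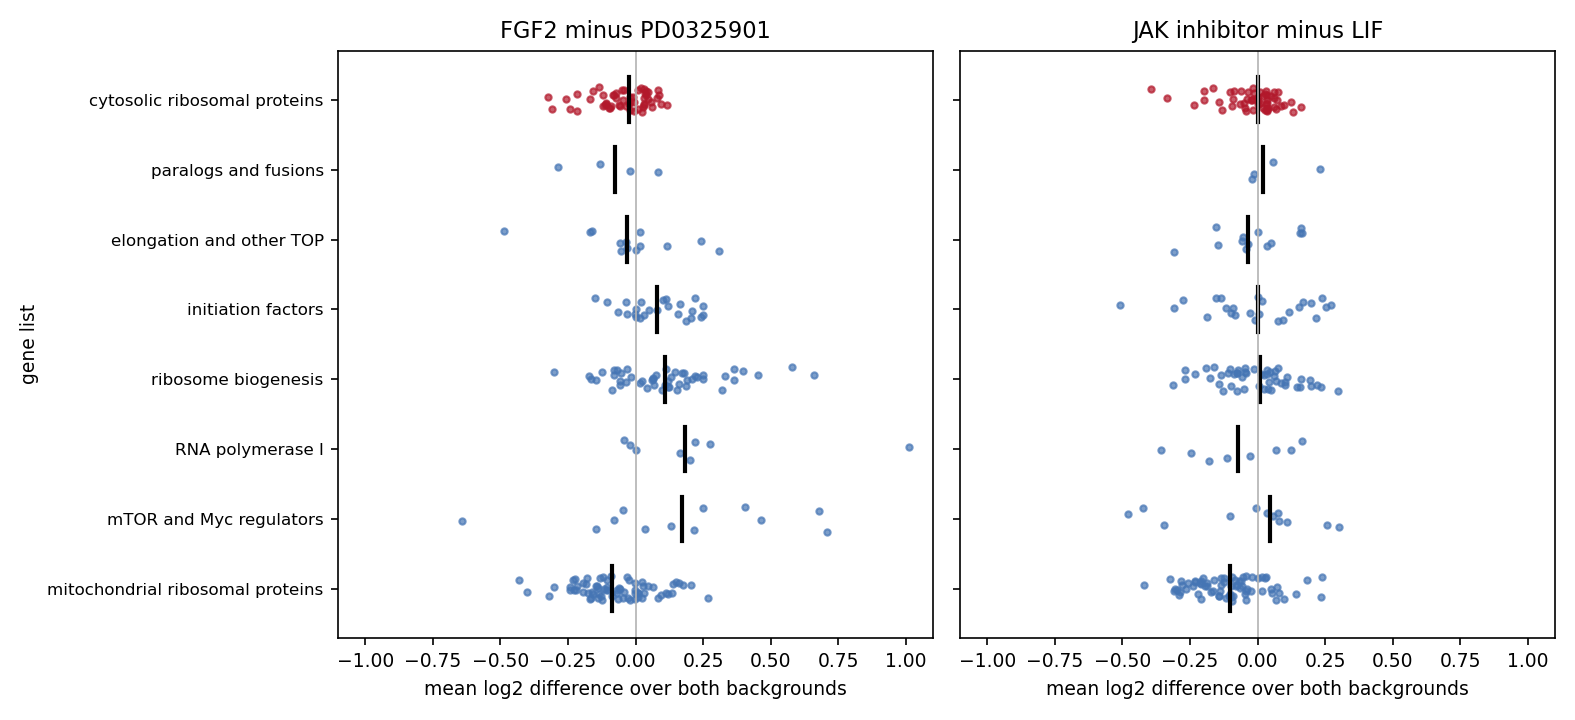
Mean log2 difference over both backgrounds for each detected gene (points) of the cytosolic ribosomal proteins and 7 related lists, with the median of each list as a black bar; vertical jitter carries no value. The cytosolic ribosomal proteins lie within 0.4 of 0 for both factors, and the ribosome biogenesis and RNA polymerase I lists extend to 0.66 and 1.01 for FGF2.

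The array of PD0325901 with LIF was the highest of the 4 for 26 of 55 members, and that of FGF2 with LIF the lowest for 22. The members' probes held 9.71% of the background-corrected signal of the first array. With FGF2 and LIF the share was 8.84%. On the arrays with the JAK inhibitor it was 9.04% beside PD0325901 and 8.70% beside FGF2. The 2 differences that do not use the first array had 1 member each at least 0.32 apart, Rps25 in both. The other 143 bright genes held 20.5%, 19.8%, 19.4% and 19.2%, so that their share too was highest on the first array. Quantile normalization evens out such a shift of all bright probes. With scaling to the median of each array in its place, the members' median difference was −0.21 for FGF2 with LIF and −0.26 for the JAK inhibitor with PD0325901, where the other bright genes had −0.15 and −0.24. The median of all 55 members, dim ones included, lay below that of the other bright genes for FGF2 with LIF. The gap was 0.07 with quantile normalization, 0.08 with cyclic loess and 0.06 with median scaling. For the 39 bright members alone the quantile-normalized median was −0.03, against 0.00 for the other bright genes.

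**Figure D5:**
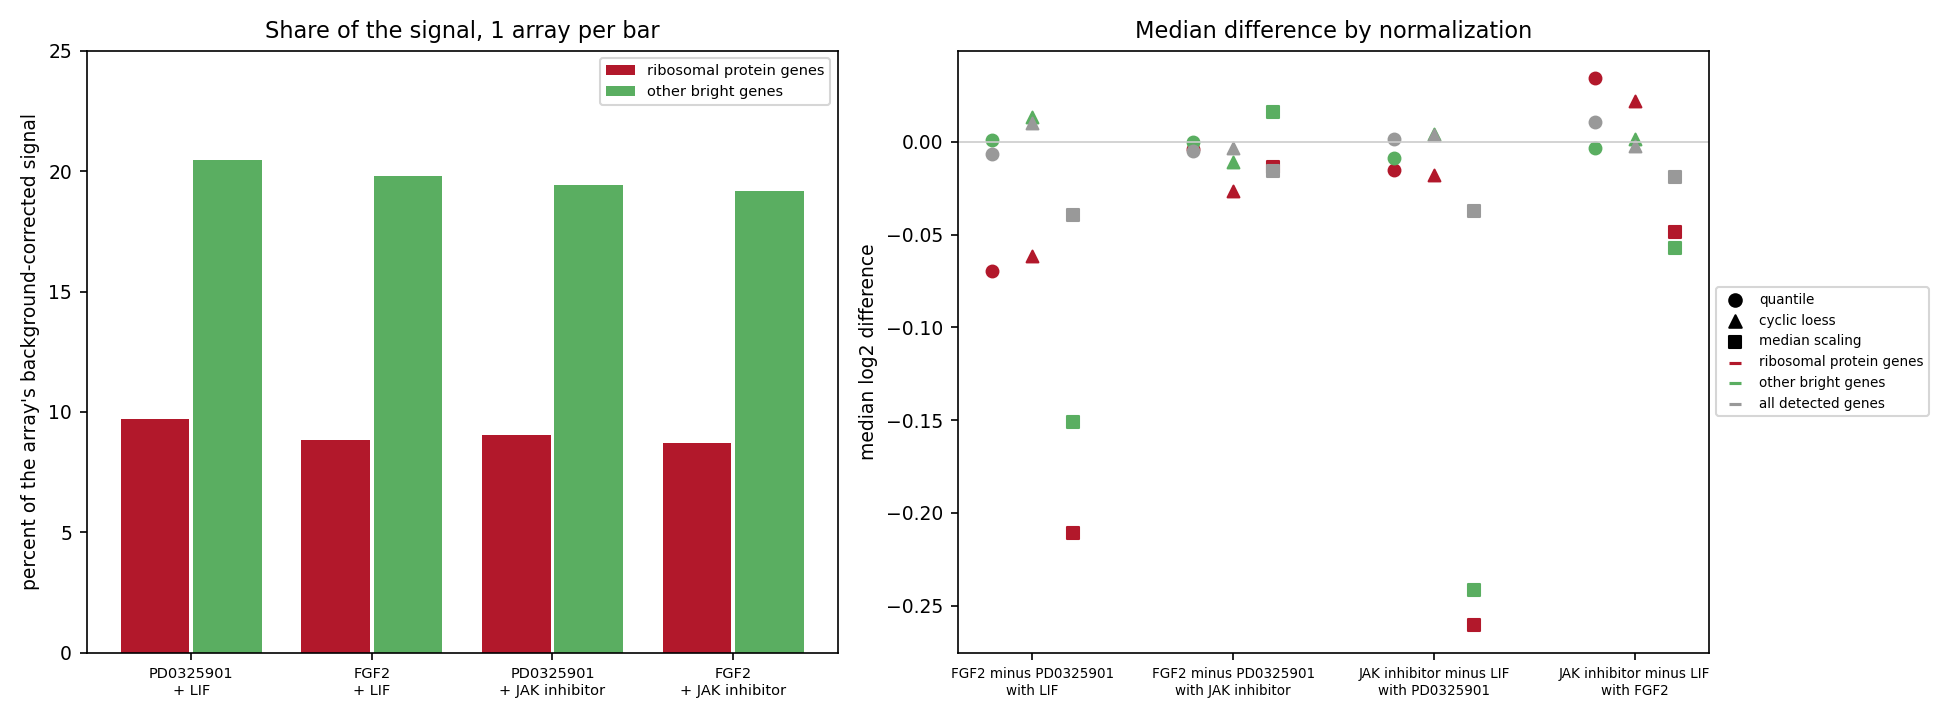
Left, percent of each array's background-corrected signal held by the 55 ribosomal protein genes and by 143 other bright genes, 1 array per bar with no error. Right, the median log2 difference of these groups and of all detected genes under 3 normalizations. Of the 55 members 39 are bright. Under median scaling the members and the other bright genes drop together, to −0.21 and −0.15 for FGF2 with LIF. For the JAK inhibitor with PD0325901 they drop to −0.26 and −0.24.

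Some fibroblast genes were also highest on that array. Of 8 fibroblast or feeder markers 5 were detected, with a mean log2 level of 8.03 with PD0325901 and LIF and 6.91 to 7.16 on the other 3 arrays. Dcn, a matrix proteoglycan, stood at 8.86 there and at 6.45 to 6.70 on the others, and Thy1 at 6.57 and 5.87 to 6.21. Lum stood at 6.51 there and was detected on 1 of the others, so the mean levels include values below detection. Acta2 stood at 11.49 there and at 11.51 with PD0325901 and the JAK inhibitor, and Col1a1 at 6.70 there and 6.69 with FGF2 and the inhibitor, while Col1a2, Col3a1 and Postn were detected on no array. All 9 ES cell markers were detected on every array, with mean levels between 10.35 and 10.62. Of 6 primitive endoderm markers 3 were detected, with Gata4, Sox17 and Pdgfra on no array. The part of other cells in the values of the ribosomal protein genes was not tested.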

How the data were processed

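Total RNA of 4 cultures was measured, 1 array per medium. Per the labels' protocols, the RNA was purified on columns and treated with DNase, and 400 ng entered a 12 h in vitro transcription that made Cy-3 labelled RNA. The labels do not say whether cultures were repeated. BeadStudio was used, per the submitters' processing notes; the version and the build are not given in the sources used.

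Per the file headers, the deposited tables gave for each of 25697 probes a mean bead signal in intensity units, its bead standard error in the same units, and a p-value for detection. The authors' deposited value table, also in intensity units, has unstated background subtraction and normalization and served as an alternative. Other per-sample columns left unused numbered 0.

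The deposited intensities were background-corrected with limma's nec (detection p-values, offset 16), turned to log2 values and quantile-normalized (R 4.3.3, limma 3.58.1). Of the probes, 23978 had 1 symbol in the series' probe annotation, 0 several and 1719 none. Kept were probes detected (p below 0.01) on any array, and the brightest stood for its gene. A level of a gene not detected on an array has only a bound there: the brighter array's value against the higher of the other array's lowest detected value and the gene's own value. Bead errors of a difference combine the bead errors of both arrays.

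The additive limma fit (lmFit, eBayes, both factors, Benjamini-Hochberg adjustment over 8341 genes) has 1 residual degree of freedom, and its p-values reflect no spread beyond these arrays. The small number of arrays limits all precision here.

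Members and lists were chosen with earlier results of these data known. Named were, per factor, the 5 members with the highest and the 5 with the lowest mean difference among those moving the same way in both backgrounds, members at least 1.5-fold apart in any difference, the 3 largest departures in each direction, a set fixed by role, members whose probes differed over 1.5-fold, and up to 3 genes of each related list per direction. Rps26 and Rps3, Rps4x and Rpl31 as a trio were singled out after their values were seen, as were Rpl14 and the markers named. Promoter windows came from RefSeq (GRCm38.p6). The alternatives were other background corrections, normalizations, detection filters, probe rules, the authors' table, a spread estimate with an intensity trend, and the 52 standard proteins alone.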

Additional observations from a re-analysis of the deposited data

How the results depend on the processing

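No paired analysis was possible because each medium had 1 array, and for the same reason no array could be left out as a replicate. Of the members' medians and counts under the alternatives, 84 stayed within the median bead error (medians) or within 1.5 times (counts) and 18 moved further, most of them with the scaling between arrays. With median scaling the members' median log2 difference was −0.21 for FGF2 with LIF, −0.26 for the JAK inhibitor with PD0325901 and −0.049 for the JAK inhibitor with FGF2, and 13, 15 and, for FGF2 with the inhibitor, 3 members were at least 0.32 apart on the log2 scale. Without normalization the median was 0.43 for FGF2 with the inhibitor (all genes 0.42), −0.31 for the inhibitor with PD0325901 (all genes −0.08) and 0.17 for the inhibitor with FGF2 (all genes 0.20), and 48, 22 and 5 members were that far apart, with 4 for FGF2 with LIF (all genes 0.14). For FGF2 with the inhibitor the count was 1 in the main setting, 2 when undetected probes were let in and 3 with the authors' value table. For the inhibitor with PD0325901 it was 0 without background correction and 0 with normexp, against 3. The limma fit called 3 members for FGF2 with an intensity trend and 0 under every other alternative run, and 0 for the JAK inhibitor under all of them, while over all genes its calls ranged from 0 to 444 and from 8 to 346. The count of members lower with FGF2 in both backgrounds was 20, between 19 and 28 under the alternatives with normalization and 0 without it; for the JAK inhibitor it was 11, and 35 with median scaling. Of 616 mean differences of single named members under the alternatives, 3 passed the limma test (Rps3, Rps4x and Rpl31 for FGF2 with the trend). None of the 616 was called with the opposite sign, but 70 uncalled values changed sign, 50 of them with median scaling or without normalization; without normalization these included the FGF2 values of Rps3a1, Rpl31, Rpl30 and Rps6. The mean FGF2 differences of Rps3, Rps4x and Rpl31, taken relative to the median of all genes, stayed below 0 under all alternatives run, at −0.37 to −0.30, −0.33 to −0.24 and −0.27 to −0.19. The causes of these shifts were not tested. Probes near background, such as those of Rpl21, Rpsa and Rpl22l1, limit what can be said of their genes.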
